A study of Mus musculus with 40 samples.

Results

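The effect of piericidin A that was left in macrophages expressing NDI1 was measured in 20 of the 40 RNA-seq libraries. These 20 come from bone marrow-derived macrophages (BMDMs) of 5 NDI1 mice, numbered 447, 460, 461, 503 and 521, each cultured under 4 conditions. They were untreated (U), treated with LPS at 100 ng per ml for 4 h (L), treated with piericidin A at 500 nM (P), or given piericidin A 30 min before LPS (PL). Libraries were taken by the genotype in their labels and joined by mouse number, which gave 10 within-mouse pairs, 5 of P with U and 5 of PL with L. NDI1 mice carry a construct in the Rosa26 locus in which a stop cassette flanked by lox sites precedes the yeast gene, and Vav-iCre removes that cassette in blood-forming cells. WT mice were littermates with Vav-iCre alone, so both genotypes carry the Cre, and their 20 libraries from 5 mice under the same 4 conditions served for comparison. Mice of both sexes were 8 to 14 weeks old and are labelled as C57/Bl6, and the precursors of all cultures were grown into macrophages over 6 days.

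Complex I of the respiratory chain oxidises NADH, passes the electrons to ubiquinone and pumps protons across the inner mitochondrial membrane. Piericidin A blocks its ubiquinone site, so NADH oxidation and proton pumping are both lost. NDI1 is a single-subunit NADH dehydrogenase of yeast mitochondria that hands electrons from NADH to ubiquinone, pumps no protons and is not a target of piericidin A. A change that piericidin A still makes in NDI1 cells is therefore one that remains when NADH oxidation has another route. Cells with a failing respiratory chain often raise genes of the integrated stress response, which is driven by the transcription factor ATF4, while genes of sterol synthesis are set by the SREBP factors.

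The NDI1 transgene itself is a yeast sequence and was not measured in the mouse gene table, so the genotype label could not be checked against it. Gt(ROSA)26Sor, the mouse transcript of the locus that holds the construct, was higher with piericidin A in 5 of 5 NDI1 mice without LPS (effect 0.40, log2) and lower in 5 of 5 with LPS (effect −0.43). These average to −0.01 ± 0.13 (standard error), and the interaction had an unadjusted p of 0.00547 and was not called by edgeR. In WT the effects were −0.04 without LPS and −0.49 with LPS, so a fall with LPS was not particular to NDI1. The gene shares positions with Thumpd3. Counts per NDI1 library ran from 8853558 to 13552070. Macrophage markers were high in every NDI1 library, with Lyz2, a lysozyme gene, between 15179 and 27739 CPM (counts scaled to the depth of the library) and Csf1r, the receptor for the growth factor of macrophages, between 1854 and 4167 CPM. LPS was visible in every pair of libraries: Il1b, the gene for interleukin-1 beta, lay between 2.04 and 8.91 CPM in the 10 NDI1 libraries without LPS and between 901 and 2796 CPM in the 10 with it. Mouse 503 stood apart from the other NDI1 mice. On the first principal component of the residuals from the group means, which held 31.4% of the variance, its 4 libraries lay between 37.3 and 43.4. Its summed level of 26 markers of other marrow cells was 298 to 612 CPM, against 18.5 to 106 CPM in the other 4 NDI1 mice. Of these markers, S100a8 and S100a9 reached 177 and 347 CPM in NDI1 libraries, and no other exceeded the 16.4 CPM of Camp. The hemoglobin genes Hba-a1 and Hbb-bs were at 0 in all 20 NDI1 libraries.

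Piericidin A changed 1 gene in NDI1 macrophages in the main analysis, and 0 to 16 genes in the alternatives given with Gdf15. Gdf15, which encodes a secreted cytokine of the TGF-beta family that rises under mitochondrial stress, was 1.43-fold higher on average over the 10 pairs. The effects of other genes were small and pointed mostly the way they did in WT. The mean of P minus U and PL minus L was tested over 11464 genes in edgeR, by quasi-likelihood with the mouse as a block, and 1 of them passed an adjusted p of 0.05, which is 0.00872% of the genes tested. At an unadjusted p under 0.05 there were 593 genes (5.17%), a share close to that threshold. Neither LPS state alone passed a gene: edgeR called 0 genes (0%) without LPS and 0 genes (0%) with LPS. At an unadjusted p under 0.05 there were 332 (2.9%) and 438 genes (3.82%), shares below that threshold. DESeq2 called 0 genes without LPS and Gdf15 alone with LPS. The change of the piericidin A effect by LPS within NDI1 also passed for 0 genes (0%) in edgeR and 0 in DESeq2. At an unadjusted p under 0.05 there were 257 (2.24%) and 221 genes. With no filter on low counts edgeR called 18 genes without LPS, 7 with LPS and 7 for this change, all of them genes that the filter keeps. The precision of the fit bounds what could have been missed. The 95% interval of the mean effect lay within 0.5 log2 units of 0 for 9465 genes (82.6%) and within 1 log2 unit for 11102 genes (96.8%), with a median interval half-width of 0.178.

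Gdf15 (ENSMUSG00000038508) lies on the minus strand of chromosome 8 at 70629393 to 70632456 in the mm10 coordinates of the deposited table, and no other listed gene overlaps it. In NDI1 mice 447, 460, 461, 503 and 521 it stood at 44.5, 24.6, 29.6, 28.3 and 55 CPM untreated and at 85.8, 33.3, 39.4, 38.9 and 61.4 CPM after piericidin A. With LPS the same mice gave 37.6, 13.3, 21.5, 15.0 and 27.8 CPM, and with piericidin A before LPS 53.7, 18.0, 28.7, 25.1 and 45.4 CPM. The groups overlapped because the mice differed in their starting level, with 447 and 521 high, while every mouse rose in both pairs. Rises within pairs ran from 1.12-fold to 1.92-fold. The mean effect was 0.52 ± 0.07 (log2, standard error, 95% interval 0.37 to 0.67, adjusted p = 0.00976, higher in 10 of 10 pairs), with 0.48 without LPS and 0.56 with LPS.

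In WT the same gene rose much more. Its level went from 41.3 ± 11.8 (SD, n = 5) CPM untreated to 764 ± 499 CPM after piericidin A, and from 27.5 ± 9.33 CPM with LPS to 243 ± 153 CPM with both. Rises within WT pairs lay between 2.60-fold and 41.7-fold, so the weakest WT pair exceeded the strongest NDI1 pair. The WT mean effect was 3.42 ± 0.26 (log2), and the NDI1 effect was 15.2% of it on the log2 scale. Their difference of −2.90 ± 0.28 passed its own test in the fit of all 40 libraries (adjusted p = 2.11e-08).

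**Figure D1:**
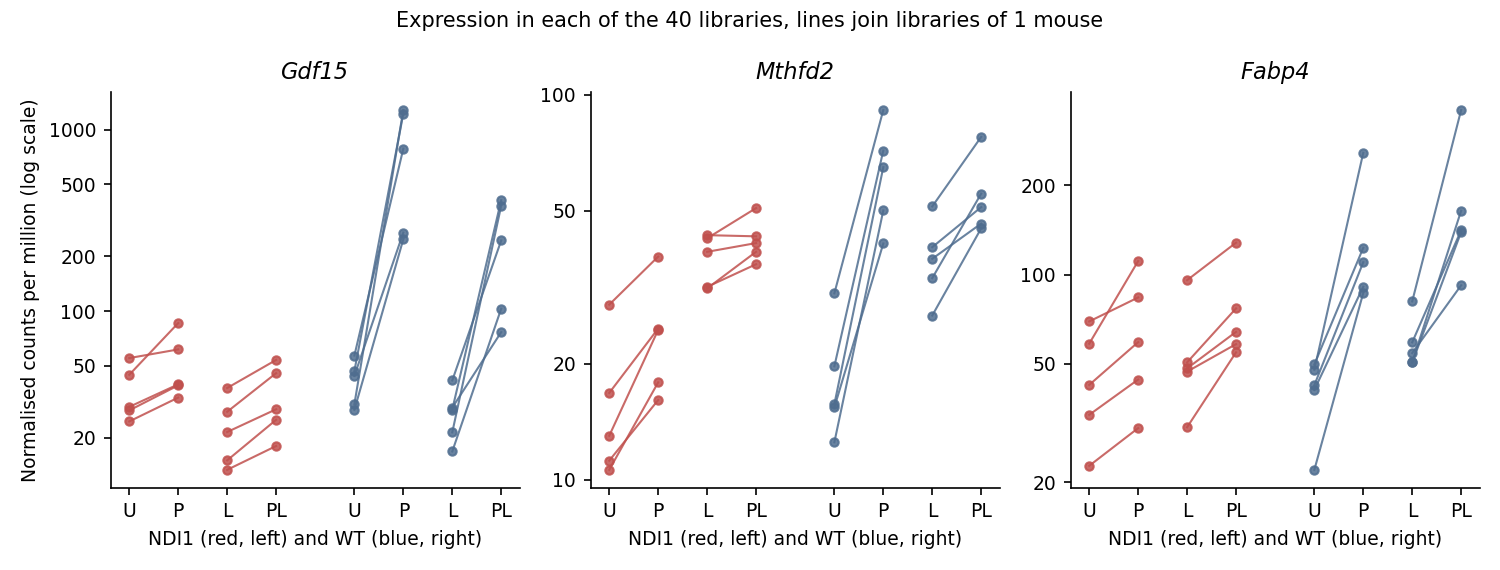
Normalised CPM on log axes (vertical) for Gdf15, Mthfd2 and Fabp4 in each library, with NDI1 on the left in red and WT on the right in blue. Lines join the libraries of 1 mouse with and without piericidin A. All 10 NDI1 lines rise for Gdf15 and for Fabp4. For Gdf15 every WT line rises more steeply than every NDI1 line, while for Fabp4 and Mthfd2 the steepest NDI1 lines exceed the flattest WT lines.

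The Gdf15 call depended on the analysis. Its size stayed between 0.47 and 0.55 over 12 analyses that kept the filter on low counts, while its adjusted p ran from 1.57e-06 in DESeq2 to 1 without the mouse block, and with no filter it was 6.61e-08. It was 0.989 in the fit of all 40 libraries. It was not called without mouse 460, 461, 503 or 521, where the adjusted p lay between 0.0691 and 0.15. The number of genes called was 0 without the block, 6 with the 10 pairs as blocks, 7 with the counts summed per mouse and 16 with no filter on low counts.

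The promoter of Gdf15 is shown beside that of Asns, the asparagine synthetase gene and a textbook ATF4 target, because the median of the ATF4 list lay above 0 in all 10 NDI1 pairs. Both are the 250 bases before a transcript start in RefSeq (GRCm38.p6), 5′ to 3′ on the minus strand. Gdf15 is at chr8:70632457-70632706 and Asns at chr6:7693210-7693459. RefSeq has 2 starts for Gdf15, and the one shown is at the 5′ end of the gene in the deposited table. Capitals mark a match to TGATGNAA, the core of the element bound by ATF4 with C/EBP partners, on either strand.
Gdf15: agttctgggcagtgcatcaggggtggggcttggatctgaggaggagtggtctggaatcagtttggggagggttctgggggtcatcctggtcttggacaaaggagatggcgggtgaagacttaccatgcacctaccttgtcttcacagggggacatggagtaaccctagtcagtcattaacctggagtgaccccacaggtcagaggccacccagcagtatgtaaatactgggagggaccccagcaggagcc
Asns: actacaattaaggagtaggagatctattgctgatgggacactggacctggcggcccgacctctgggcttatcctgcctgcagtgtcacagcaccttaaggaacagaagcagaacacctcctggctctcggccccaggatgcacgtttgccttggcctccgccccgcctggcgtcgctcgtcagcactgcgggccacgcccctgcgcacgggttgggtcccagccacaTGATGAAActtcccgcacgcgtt
The element lay 23 bases before the start in Asns and was not in the Gdf15 stretch. TGACGTCA, the full cyclic AMP response element, and TGANTCA, the AP-1 element, were searched on both strands too and were found in neither stretch. The stretch before the other Gdf15 start (chr8:70632096-70632345) held none of the 3 either. In windows of 300 bases (250 before to 50 after the start), TGATGNAA occurred for 4.51% of 27025 gene symbols, TGACGTCA for 2.03% and TGANTCA for 8.97%. Of the 27 tested genes of the ATF4 list, 25 had a window, and 8 of them (32%) held TGATGNAA: Atf3, Trib3, Chac1, Asns, Pck2, Slc7a11, Nupr1 and Vldlr. TGACGTCA was in 1 of the 25 (4.0%) and TGANTCA in 2 (8.0%).

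The 10 genes with the smallest p in NDI1 include 2 further rises. Fabp4, which encodes a fatty acid-binding protein of adipocytes and macrophages, stood at 58.5, 33.7, 42.5, 69.5 and 22.7 CPM untreated in mice 447, 460, 461, 503 and 521, and at 111, 44.3, 59.2, 83.7 and 30.4 CPM after piericidin A. With LPS it went from 50.6, 30.6, 48.3, 95.7 and 47.1 CPM to 76.9, 54.7, 64.1, 128 and 58.3 CPM. All 10 pairs were higher with piericidin A, by 1.2-fold to 1.9-fold. The mean effect of 0.51 ± 0.12 (log2) did not pass the edgeR test with the mouse as a block (adjusted p = 0.925). It was called with counts summed per mouse (adjusted p = 0.00686), with no filter on low counts (adjusted p = 1.26e-08) and with the 10 pairs as blocks, an analysis chosen after seeing the data (adjusted p = 0.00102). In WT, Fabp4 rose by 1.56 ± 0.15 (adjusted p = 3.42e-07).

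Mthfd2 encodes a mitochondrial enzyme of folate metabolism that can use NAD+ and is an ATF4 target. In the same order of mice it stood at 13.0, 11.2, 10.6, 16.8 and 28.5 CPM untreated and at 24.5, 16.1, 17.9, 24.7 and 38.0 CPM after piericidin A, higher in 5 of 5 mice. With LPS the levels were already 31.4 to 43.2 CPM and reached 36.3 to 50.8 CPM with piericidin A, so the groups with LPS overlapped. The effect was 0.62 without LPS and 0.16 with LPS, and the mean of 0.39 ± 0.09 was not called by edgeR with the mouse as a block (adjusted p = 0.925). It was called with counts summed per mouse (adjusted p = 0.0277) and with no filter on low counts (adjusted p = 0.00105). In WT it rose by 1.16 ± 0.08 (adjusted p = 8.96e-09), and the difference between the genotypes passed the test (adjusted p = 5.17e-05).

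The other 7 of these 10 genes had negative effects, with an adjusted p of 0.925 each. Magee1, a member of the MAGE family, was lower with piericidin A in 10 of 10 NDI1 pairs, by −0.41 ± 0.10 (log2), at 6.94 to 11.2 CPM untreated and 5.40 to 10.7 CPM after piericidin A. In WT it fell by 0.36 (adjusted p = 0.0261), so it is one gene whose NDI1 value was as large as the WT one, and the difference of the 2 effects did not pass (adjusted p = 0.877). Sc5d, an enzyme late in cholesterol synthesis, had −0.20 ± 0.06 in NDI1 and −0.42 in WT. Zbtb1, a zinc finger factor, had −0.22 ± 0.06 in NDI1 and fell by 0.67 in WT. Fli1, Fgd4 and Gba2 share positions with another listed gene, and had −0.19, −0.28 and −0.38. For Gba2 the value is the mean of −0.11 without LPS and −0.64 with LPS, and it was −0.20 with counts summed per mouse. ENSMUSG00000103109, which has no symbol here, had −0.50 and was lower in 10 of 10 pairs.

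**Figure D2:**
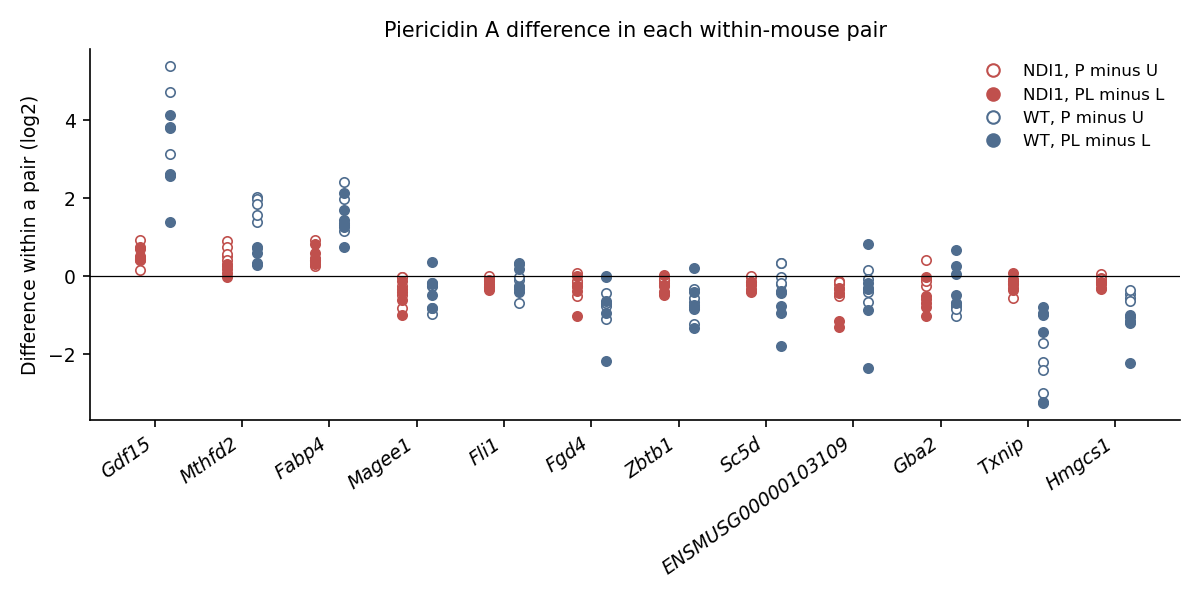
Piericidin A difference (log2, vertical) within each of the 10 NDI1 pairs (red) and 10 WT pairs (blue) for the 10 genes with the smallest p in NDI1 and for Txnip and Hmgcs1. Open points are P minus U and filled points PL minus L. For Gdf15 the NDI1 points lie between 0.16 and 0.94 and the WT points between 1.38 and 5.38.

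Genes at the extremes of the WT response were the next question, since they offer the most room for a residue. In WT, 4780 of 11456 genes (41.7%) changed, 2336 upwards (20.4%) and 2444 downwards (21.3%), and without the mouse block the count was 2710. Of the 5 largest WT rises, Gdf15 alone was called in NDI1. Htr2a, a serotonin receptor gene, rose by 3.32 in WT and had 0.11 ± 0.19 in NDI1. Dusp8, a phosphatase of stress kinases, rose by 3.30 in WT and had 0.03 ± 0.18 in NDI1. Hbegf, an EGF receptor ligand, rose by 3.02 in WT and had 0.00 ± 0.18 in NDI1, and Tox2, a nuclear HMG-box protein, rose by 3.01 in WT and had 0.40 ± 0.31 in NDI1. These 4 genes were named for their WT response and had a mean level of 0.14 to 1.00 log2 CPM in NDI1. Their 95% intervals ran from −0.30 to 0.51 for Htr2a, from −0.35 to 0.41 for Dusp8, from −0.39 to 0.38 for Hbegf and, the widest, from −0.24 to 1.04 for Tox2.

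Txnip was the largest WT fall, and of the 10 genes at the WT extremes it had the smallest NDI1 p after Gdf15, without passing the test. It encodes a thioredoxin-binding protein whose mRNA tracks glucose metabolites. Mice 447, 460, 461, 503 and 521 had 824, 814, 849, 599 and 627 CPM untreated and 558, 747, 737, 571 and 511 CPM after piericidin A, lower in 5 of 5 mice. With LPS they had 352, 425, 293, 299 and 269 CPM, and with both 276, 373, 309, 277 and 238 CPM, lower in 4 of 5. The mean effect was −0.20 ± 0.06 (unadjusted p = 0.00433, adjusted p = 0.925), against −1.94 ± 0.19 in WT. The remaining WT falls, Pou2f2, Cp, Cyp51 and Kctd7, had NDI1 values between −0.26 and −0.12, each negative in 7 to 9 of 10 pairs. Txnip, Pou2f2 and Cp, as well as Il1b, share positions with another listed gene, and as the use of strand in the counting is not given here, reads of the 2 may be mixed.

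Across genes, the NDI1 values leaned towards the WT direction. Of 4728 genes called in WT and tested in both genotypes, 3681 (77.9%) had the WT sign in NDI1, against 58.6% of the genes not called in WT. The median NDI1 effect was 0.06 over genes that rose in WT, where the WT median was 0.41, and −0.06 over genes that fell in WT, where it was −0.37. The NDI1 effect was smaller in size than the WT effect for 4719 of the 4728 genes, a count that their choice by the WT effect largely fixes, and for 4609 of the 6586 genes not called in WT. A line through 0 gave a slope of 0.109, and the correlation across these genes was 0.476. The genes come from the same 20 libraries a genotype and are not independent replicates, and no library is shared by the genotypes. Of the 389 WT-called genes with an unadjusted p under 0.05 in NDI1, 372 (95.6%) had the WT sign, against 140 of the 200 (70%) at that p that were not called in WT. The exceptions to the WT sign include Ddit4, an inhibitor of mTORC1 signalling, which rose by 1.85 in WT and had −0.50 ± 0.25 in NDI1. It was lower in 9 of 10 NDI1 pairs, with an adjusted p of 0.925. Its level was low in NDI1, with group means between 1.44 and 2.93 CPM.

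**Figure D3:**
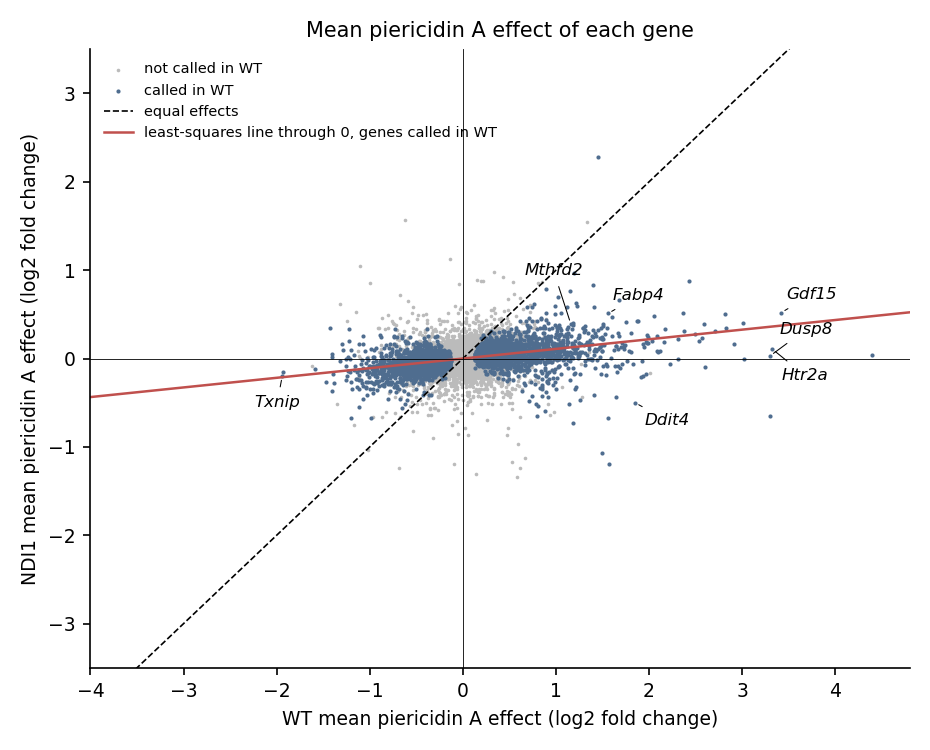
Mean piericidin A effect (log2 fold change) of 11314 genes in WT (horizontal) and NDI1 (vertical), with genes called in WT in blue. The dashed line marks equal effects and the red line is the least-squares line through 0 over the blue points, with a slope of 0.109. The blue cloud is nearly flat and tilts upwards to the right.

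A score per mouse put this on replicates. For each pair, the log2 difference of each of the 4780 WT-called genes was multiplied by the sign of its WT effect and averaged, so a score above 0 is movement in the WT direction. The genes were chosen in WT libraries, which share nothing with the NDI1 pairs. Without LPS the scores of mice 447, 460, 461, 503 and 521 were 0.144, 0.0331, 0.0340, 0.0251 and 0.0216, and with LPS they were 0.0838, 0.128, 0.0713, 0.0291 and 0.0298. All 10 pairs lay above 0, and the largest was 0.144. Averaged per mouse the score was 0.0600 ± 0.0376 (SD, n = 5), above 0 in 5 of 5 mice. The two-sided exact permutation test of signs gave p = 0.0625, the smallest that 5 mice allow, so this test cannot pass 0.05. With the 10 pairs as separate values the exact p was 0.00195, again the smallest possible, but 2 pairs of a mouse are not independent.

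Scores with LPS exceeded those without it by 0.0168 ± 0.0564 (SD, n = 5 mice, exact permutation p = 0.562), so no difference of the mean score between LPS states was detectable with 5 mice. The correlation of the NDI1 effects without and with LPS, which share mice but no library, was 0.0845 across 11464 genes and 0.199 across the 4728 called in WT, against 0.403 across 11456 genes in WT. Most NDI1 effects were near 0, and the direct test of the LPS states called 0 genes, as given above. WT mice, each scored with genes called in the other 4, had 0.464 ± 0.169 (SD, n = 5), between 0.246 and 0.647. The NDI1 mean was 12.9% of the WT mean. The difference of 0.404 gave p = 0.00794 in the two-sided exact permutation test, the smallest that 5 against 5 mice allow, and the genotypes did not overlap.

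**Figure D4:**
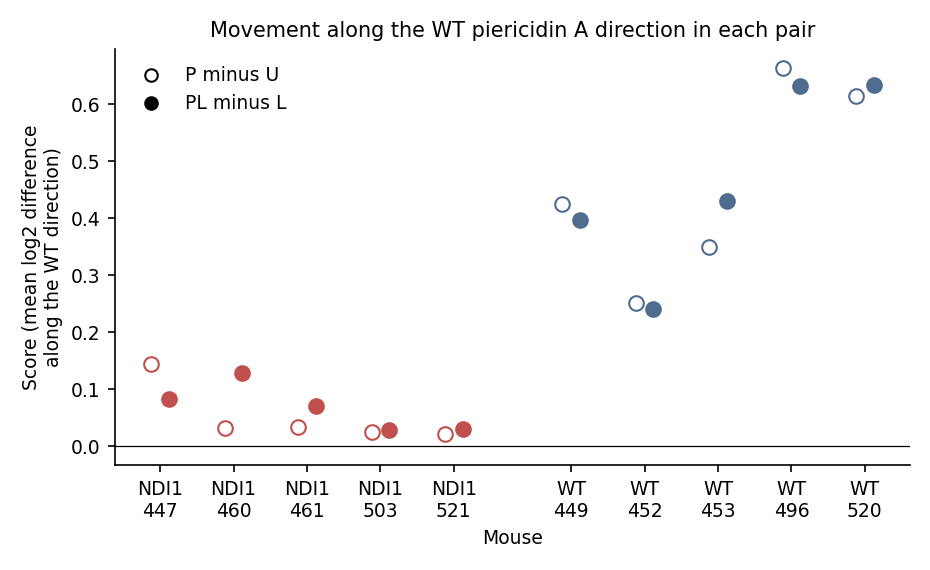
Score along the WT direction (mean log2 difference over WT-called genes, vertical) for each pair of each mouse. Open points are P minus U and filled points PL minus L, with NDI1 in red and WT in blue. NDI1 points lie between 0.0216 and 0.144 and WT points between 0.241 and 0.663.

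Both of the highest NDI1 scores came from pairs whose differences moved with gene length. The median difference of the shortest 20% of genes minus that of the longest 20% was 0.424 for P minus U of mouse 447 and 0.425 for PL minus L of mouse 460, against −0.104 to 0.0792 in the other 8 pairs. In WT it ran from −0.115 to 0.515. Without these 2 NDI1 pairs the score was 0.0445, and with the length trend of every pair taken out it was 0.0554, above 0 in 5 of 5 mice both times. Gdf15 was also called without the 2 libraries concerned (0.51, adjusted p = 0.012). These analyses were chosen after seeing the data.

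The difference between the genotypes was tested directly. It passed for 2037 of 11853 genes (17.2%), and the NDI1 effect was the smaller one for 2025 of them. In 665 of the 2037 the 2 effects had opposite signs. In the separate fits, 66.6% of all 11314 genes tested in both genotypes had the same sign. Only 1 gene was called in NDI1 in the main analysis, and the NDI1 signs were not tested. The count of called differences was 531 without the mouse block, 1258 without WT mouse 496 and 1317 without WT mouse 520. WT mouse 496 had 309 to 1774 CPM of other marrow cell markers, and the part of these markers in the genotype difference was not tested.

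The median of the integrated stress response genes lay above 0 in every NDI1 pair. Of 27 tested genes of the ATF4 list, Gdf15 was called in NDI1, 5 (18.5%) had an unadjusted p under 0.05 and 22 (81.5%) were positive, with a median of 0.11. Over all tested genes these shares were 5.17% and 49.3%, and the median was 0.00. In WT 22 of the 27 rose, none fell, and the median was 0.76, where 20.4% of all tested genes rose and 21.3% fell. The list's median was above 0 in 10 of 10 NDI1 pairs, between 0.0159 and 0.286, and up to 0.251 in the 8 pairs with the smaller length trends. The median of all tested genes was above 0 in 7 of 10 NDI1 pairs, between −0.063 and 0.0204. Slc7a11, the cystine transporter, had 0.13 ± 0.24 (1.47 in WT). Besides Gdf15 and Mthfd2, Asns had 0.16 ± 0.06 (0.85 in WT), and Trib3, a pseudokinase induced by ATF4, had 0.19 ± 0.10 (1.33 in WT). Chac1, which degrades glutathione, rose by 2.37 in WT and had 0.31 ± 0.38 in NDI1, where it was under 5 CPM in every library. Ddit4, the member with the largest rise in WT after Gdf15 and Chac1, had −0.50 as given above, and Sesn2, a stress-induced inhibitor of mTORC1, had −0.09 ± 0.11 against 0.67 in WT. Atf4 itself had 0.11 ± 0.08, against 0.76 ± 0.08 in WT. Its NDI1 pairs ran from 0.10 to 0.37 without LPS and from −0.12 to 0.14 with LPS. Its WT pairs ran from 0.83 to 1.96 without LPS and from −0.05 to 0.39 with LPS. The difference between the genotypes passed for 20 of the 27, against 17.2% of all genes.

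The cytosolic aminoacyl-tRNA synthetases, which charge tRNAs and include ATF4 targets, gave a similar picture on a smaller scale. None of the 18 was called in NDI1, 4 (22.2%) had an unadjusted p under 0.05 and 16 (88.9%) were positive, against 5.17% and 49.3% of all tested genes. The median was 0.06 against 0.26 in WT, where 11 rose (against 20.4% of all genes). All 10 NDI1 pair medians were above 0, between 0.0109 and 0.0956. Aars, the alanine enzyme, was higher in 10 of 10 pairs by 1.01-fold to 1.14-fold. Yars, the tyrosine enzyme, had 0.16 ± 0.06 against 0.62 in WT, and Cars, the cysteine enzyme, had 0.19 ± 0.06 against 0.58.

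Sterol and fatty acid synthesis genes leaned downwards. Of 33 tested SREBP-list genes none was called in NDI1, 7 (21.2%) had an unadjusted p under 0.05 and 27 (81.8%) were negative, against 5.17% and 50.7% of all tested genes. The median was −0.09 against −0.36 in WT, where 21 fell and 2 rose (against 21.3% and 20.4% of all genes). The pair median was below 0 in 9 of 10 NDI1 pairs. Hmgcs1, which makes HMG-CoA, stood at 94.1, 74.6, 76.1, 63.2 and 107 CPM untreated in mice 447, 460, 461, 503 and 521 and at 98.8, 71.8, 69.4, 57.0 and 102 CPM after piericidin A. With LPS it went from 246, 152, 158, 112 and 213 CPM to 198, 121, 141, 102 and 185 CPM, lower in 5 of 5 mice. Its mean effect was −0.15 ± 0.05 (unadjusted p = 0.00682, adjusted p = 0.925), against −0.96 in WT. Cyp51 and Hsd17b7, further enzymes of the pathway, had −0.15 and −0.24 in NDI1 and fell by 1.21 and 1.25 in WT. For Hsd17b7 the NDI1 value is the mean of 0.01 without LPS and −0.50 with LPS. Insig1, which retains SREBP in the endoplasmic reticulum, rose by 1.63 in WT and had −0.09 ± 0.06 in NDI1.

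Glycolysis and HIF-1 targets had values of both signs in NDI1. In WT 20 of 30 rose, against 20.4% of all genes, with a median of 0.38. In NDI1, where 0.00872% of all genes were called, none of the 30 was, 16 were positive and the median was 0.01. Hilpda, a lipid droplet protein, had 0.28 ± 0.16 against 2.49 in WT. Vegfa, the vascular growth factor, had 0.01 ± 0.09 in NDI1, within 0.896-fold and 1.12-fold in all 10 pairs, against 1.59 ± 0.11 in WT. Mitochondrially encoded mRNAs also had a median near 0 in NDI1 (−0.02 over 7 genes, none called), against −0.43 in WT, where 6 of the 7 fell (against 21.3% of all genes). The complex I subunit gene mt-Nd1 of the mitochondrial genome had 0.02 ± 0.06 in NDI1 and −0.48 ± 0.08 in WT. For the immediate early genes the median was 0.03 over 20 genes, against 0.52 in WT, and none was called in NDI1. Nr4a3, an orphan nuclear receptor, had 0.24 ± 0.26 against 1.99 in WT, and Fosb, an AP-1 subunit, had 0.27 ± 0.28 against 1.98.

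Nuclear genes of complex I were positive in 34 of 36 cases in NDI1, with none called, 3 (8.33%) at an unadjusted p under 0.05, against 5.17% of all tested genes, and a median of 0.11 against 0.16 in WT. The pair medians ran from −0.0626 to 0.518 and only 7 of 10 were above 0, the same count as over all tested genes. Of the 36 genes, 21 are among the shortest 20% of genes. Cytosolic ribosomal protein genes, a list added after seeing the data, had a median of 0.14 with 8 of 10 pairs above 0. Of these 82 genes 81 were positive and 25 had an unadjusted p under 0.05, and 41 are among the shortest 20%. In WT the ribosomal list had a median of 0.36 and 78 of the 82 rose (against 20.4% of all genes). Nuclear subunits of complexes II to V, added likewise, had 0.10 with 7 of 10 pairs above 0, 41 of 42 genes positive and 3 at an unadjusted p under 0.05. The high values of these 3 lists sat in the 2 pairs with the large length trend. In P minus U of mouse 447 and PL minus L of mouse 460 the complex I list had 0.501 and 0.518, against −0.0626 to 0.134 in the other 8 pairs, and the ribosomal list had 0.591 and 0.45, against −0.0488 to 0.17. Ndufa6, a complex I subunit gene, had 0.21 ± 0.07 in NDI1 and rose by 0.49 in WT.

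**Figure D5:**
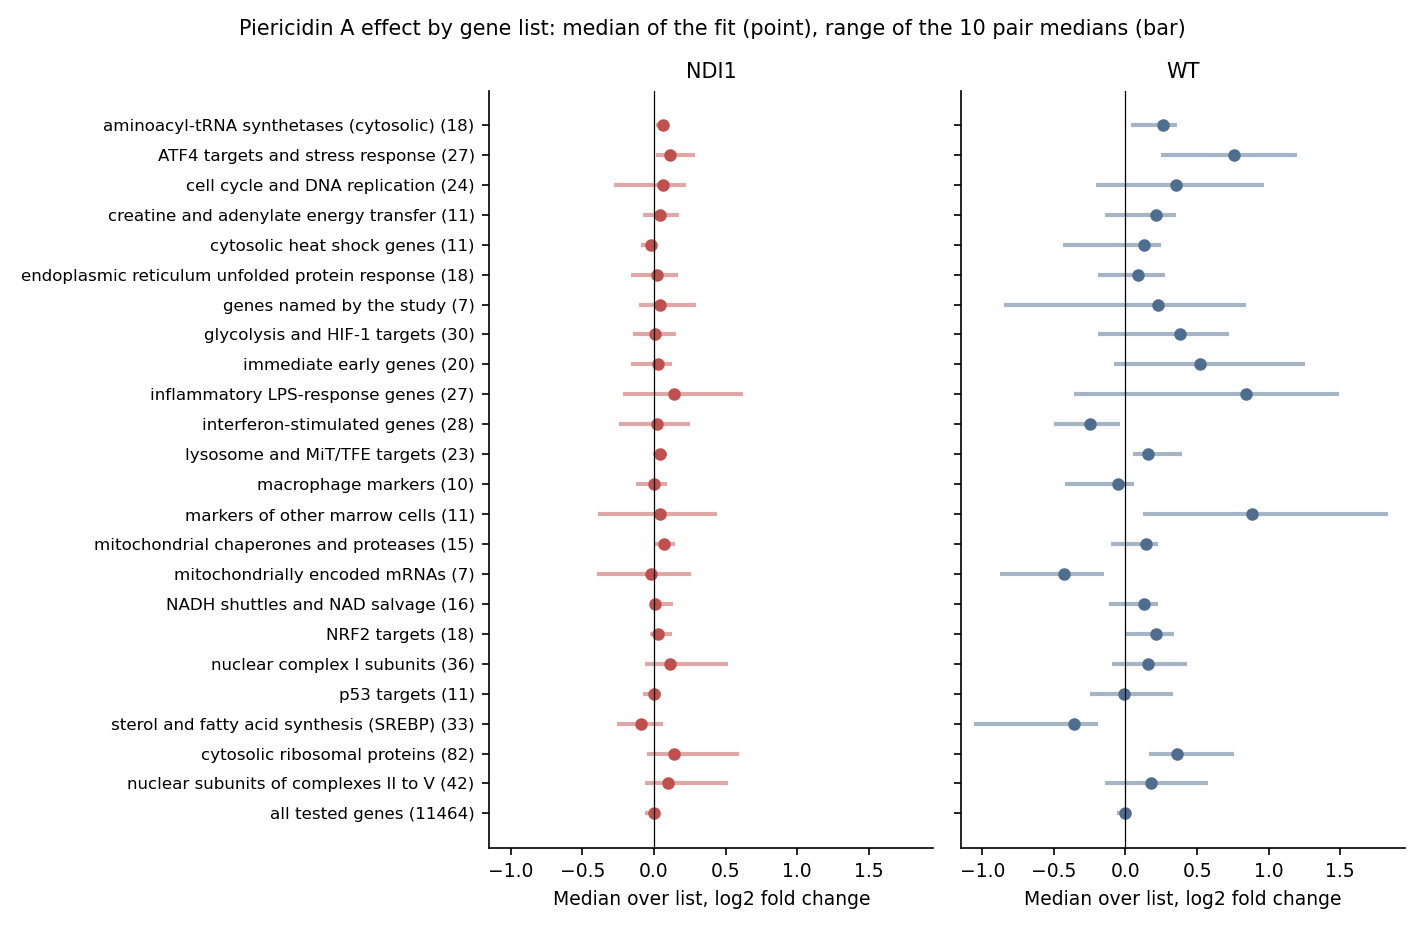
Piericidin A effect by gene list (log2, horizontal) in NDI1 (left) and WT (right), with the number of tested genes in parentheses. Points are medians of the fitted effects and bars run from the lowest to the highest of the 10 pair medians. In NDI1 the ATF4 list and the synthetases lie wholly above 0, and the other bars reach or cross 0.

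Some inflammatory genes had NDI1 effects of opposite sign in the 2 LPS states, and none of these interactions passed the edgeR test of the filtered genes. Of 27 inflammatory LPS-response genes none was called in NDI1, where 0.00872% of all genes were, and 22 were positive. The median was 0.14, against 0.84 in WT, with the pair median above 0 in 6 of 10 pairs. Tnf, the gene for tumour necrosis factor, stood at 18.3, 11.7, 8.36, 33.5 and 30.9 CPM untreated and at 30.5, 12.8, 7.75, 45.0 and 47.4 CPM after piericidin A, higher in 4 of 5 mice. With LPS it had 1302 to 2049 CPM, and with both 1158 to 2074 CPM, so these groups overlapped almost fully. Its effects were 0.44 without LPS and −0.04 with LPS, against 2.06 and 0.19 in WT. Il1b had 0.44 without LPS and −0.28 with LPS, where it was lower in 5 of 5 mice, from 1200, 1418, 1750, 2796 and 1457 CPM to 901, 1315, 1644, 2175 and 1070 CPM. In WT its effects were 1.34 without LPS and −0.87 with LPS. The interaction for Il1b had an unadjusted p of 0.0679. With no filter on low counts, edgeR called the interaction of Il1b (adjusted p = 0.0283), Il1a, Cxcl10, Acod1 and Cxcl2, all negative. That analysis also called positive effects without LPS for Cxcl10 (adjusted p = 4.96e-10), Acod1 (6.21e-10), Ccl4 (2.29e-05), Il1a (4.44e-05), Cxcl2 (0.0101) and Tnf (0.0174). With the filter, edgeR called 0 genes without LPS (smallest adjusted p = 0.77), and so did DESeq2. Mouse 461 did not rise without LPS for Acod1 (−0.02, log2) or Tnf (−0.11), while the other mice rose for both. Ccl4, a chemokine gene, had a mean of 0.39 ± 0.14, higher in 9 of 10 pairs, against 2.59 in WT, and its mean effect passed with no filter on low counts (adjusted p = 0.000285). Cxcl1, a neutrophil chemokine gene, had −0.06 ± 0.18 against 1.83 in WT.

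None of the remaining genes that the study names was called in NDI1. Their mean effects were small. Nlrp3 had 0.00 ± 0.19, the mean of 0.19 without LPS and −0.20 with LPS (0.87 and −0.40 in WT), Pycard 0.00 ± 0.09, Casp1 0.03 ± 0.09, Il10 0.06 ± 0.21 and Ckb 0.04 ± 0.07, with an adjusted p of 0.957 or more each. Nlrp3, Pycard and Casp1 encode parts of the inflammasome, Il10 an anti-inflammatory cytokine and Ckb the brain-type creatine kinase. Casp1 fell by 0.41 in WT and the difference between the genotypes passed (adjusted p = 0.0196). For Nlrp3 the NDI1 interval ran from −0.40 to 0.40, which leaves room for changes of that size.

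The other lists held no called gene in NDI1 in the main analysis. Their medians lay between −0.02 and 0.07, from the cytosolic heat shock genes to the mitochondrial chaperones and proteases. Of the chaperones and proteases 14 of 15 were positive, as were 19 of 23 lysosome and MiT/TFE targets (median 0.04). Each of these 2 lists had a pair median above 0 in 9 of 10 pairs, against 7 of 10 over all tested genes. Among NRF2 targets, genes of the antioxidant response, the median was 0.03 against 0.21 in WT, and Srxn1 and Ftl1 were higher in 10 of 10 NDI1 pairs by at most 1.17-fold and 1.28-fold. The interferon-stimulated genes had 0.02 in NDI1, where 15 of 28 were positive, and −0.25 in WT, where 15 fell and 4 rose (against 21.3% and 20.4% of all genes). Ifi44 had −0.24 ± 0.11 in NDI1, lower in 9 of 10 pairs, and fell by 0.87 in WT. Markers of other marrow cells had a median of 0.04 over 11 tested genes in NDI1, against 0.86 in WT, where 9 rose (against 20.4% of all genes). S100a8 of this list was called in NDI1 by edgeR with no filter on low counts (0.35, adjusted p = 0.0251). In whole cultures, a change in the number of other marrow cells and a change in their RNA cannot be told apart.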

How the data were processed

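RNA-seq of BMDMs gave 40 libraries, grouped by genotype, treatment and mouse number from their labels. The authors deposited raw counts of reads per gene, made by demultiplexing with bcl2fastq, trimming with Trimmomatic 0.39, alignment to mm10 with STAR and counting in exons with HTSeq. Other versions, annotation release and use of strand are not given in the sources used here, so overlapping genes are uncertain. Of 43430 genes, 42462 had a symbol, and 1 column of reads left unassigned to a library was not used. Reads carry no molecular identifiers, so counting error understates the true error.

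The models were edgeR 4.0.16 quasi-likelihood fits (glmQLFit, glmQLFTest) under R 4.3.3. Genes were kept by filterByExpr (minimum count 10) and scaled by TMM. The NDI1 and WT effects were each fitted on 20 libraries with the mouse as a block, and their difference on all 40 with a block of 10 mice. The contrast was the mean of P minus U and PL minus L, and p-values were adjusted over all tested genes by Benjamini-Hochberg at 0.05. The standard error is the log2 fold change divided by the root of the F statistic. The study's methods name no block. It is used here because the effect is defined within mice, and libraries of 1 NDI1 mouse deviated together (mean correlation of 0.438 for 30 library pairs, lowest 0.0772 and highest 0.78, while 120 pairs across mice averaged −0.104). Libraries of a group differed beyond counting noise (chi-square per degree of freedom 9.89 to 65.6 over 40 pairs). CPM are TMM-scaled, log2 values use a prior count of 2, and scores were compared by exact permutation tests. In data simulated for the NDI1 mean effect, 84.5% of 200 genes changed by 0.5 log2 units were recovered over 11375 genes, with 7 false calls. There 200 genes changed at once, which eases the adjustment for many tests. Recovery of a gene that changes alone was not tested. In the measured NDI1 data, edgeR with the mouse as a block called Gdf15 (0.52, adjusted p = 0.00976). It did not call Fabp4, with an effect of nearly the same size (0.51, adjusted p = 0.925).

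The NDI1 libraries, gene lists and tests were chosen with earlier results of these data known. Named were genes called in NDI1, the 10 smallest p in NDI1 and the 5 largest rises and falls in WT, each averaging 1 log2 CPM or more in the genotype that named it. The WT ones also had to move 1 way in all 10 WT pairs. Genes the study names, Gt(ROSA)26Sor and up to 4 members of each of 23 lists (called in NDI1 or else largest in WT) were added. Asns, Trib3, Atf4, Sesn2, Aars, Hmgcs1, Srxn1, Ftl1 and the genes outside these lists in the closing section were named after their values were seen. DESeq2 1.42.0, RLE factors, other filters, no block, sums per mouse, 1 fit of all libraries and leaving out each mouse were alternatives. Sequences are from RefSeq (GRCm38.p6).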

Additional observations from a re-analysis of the deposited data

Results flagged for a closer look

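NDI1 and WT macrophages responded unequally to piericidin A by direct tests. The difference of the mean effects passed for 2037 genes in edgeR, and the score along the WT direction was 0.404 higher in WT. Among the named genes, 13 of 27 had a called difference, against 17.2% of all genes tested, but 9 of the 13 are among the 10 genes named for the size of their WT effect, so the count says nothing about the named genes. Stated as NDI1 minus WT on the log2 scale, genes that rose in WT gave −2.9 for Gdf15, −3.27 for Dusp8, −3.2 for Htr2a, −3.02 for Hbegf, −2.6 for Tox2, −1.05 for Fabp4 and −0.77 for Mthfd2. Genes that fell in WT gave 1.74 for Txnip, 1.47 for Pou2f2, 1.05 for Cyp51, 1.04 for Cp, 0.45 for Zbtb1 and 0.44 for Casp1.

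NDI1 mouse 503 lay far from the other 4 NDI1 mice in the summed CPM of other marrow cell markers under every treatment, with 298 untreated, 388 after piericidin A, 612 with LPS and 608 with both. WT mouse 496 also lay far from the other 4 WT mice in the same measure, with 309 untreated, 1057 after piericidin A, 729 with LPS and 1774 with both. None of the other groups among the 37 groups of 5 values examined held such a value, and chance alone marks about 1 group in 20, a rate for independent groups, which 4 treatments of the same mice are not. Without NDI1 mouse 503 the score was 0.0682, and Gdf15 had 0.5 (log2, edgeR adjusted p = 0.15).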

How the results depend on the processing

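The score along the WT direction was positive in all 16 alternatives, between 0.0445 and 0.104, and with the 10 pairs as separate values it was 0.06 with an exact p of 0.00195, which treats 2 pairs of a mouse as independent. The count of genes called in NDI1 was 0 without the mouse block, 0 in 1 fit of all 40 libraries, 1 in DESeq2, 7 with counts summed per mouse, 6 with the 10 pairs as blocks (chosen after seeing the data), and 0 to 1 when each mouse was left out. DESeq2 called 1 gene with LPS. Without a filter on low counts 16 genes were called for the mean effect, 18 without LPS, 7 with LPS and 7 for the interaction. None of these was a gene that the filter had removed, and the cause was not tested. In WT the count fell to 2710 without the block, and the genotype difference to 531. Leaving out a mouse put the genotype difference between 1258 (without WT mouse 496) and 2456 genes. The 9 other genes with the smallest p kept their direction in all 12 alternatives each that kept the filter on low counts. They were picked in the same libraries that these alternatives reuse, so a kept direction is no independent check. Of the 9 genes, Mthfd2 and Fabp4 passed with counts summed per mouse (adjusted p = 0.0277 and 0.00686), Fabp4 with the 10 pairs as blocks, and both with no filter on low counts (adjusted p = 0.00105 and 1.26e-08). Depth limits genes near 1 CPM such as Chac1, and 5 mice limit the exact sign test to 0.0625.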

Other observations

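Several genes were called in NDI1 only in alternative analyses, and their values are given here as descriptions of genes chosen after they were seen. Lpl and Ccr3 were called with the 10 pairs as blocks (adjusted p = 0.026 each) and not with counts summed per mouse or with the mouse as a block. Lpl, which encodes lipoprotein lipase, was lower with piericidin A in 10 of 10 NDI1 pairs, by −0.08 to −0.42 (log2). Untreated it stood at 616, 422, 1354, 1146 and 981 CPM in mice 447, 460, 461, 503 and 521, and after piericidin A at 557, 374, 1150, 908 and 877 CPM. Its mean effect was −0.24 ± 0.10, against −0.64 in WT. Ccr3, a chemokine receptor gene, was lower in 10 of 10 pairs too, by −0.03 to −0.53, with a mean of −0.34 ± 0.11 against −1.12 in WT.

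Tent5c, which encodes a poly(A) polymerase, and Pou3f1, a POU-domain factor, rose in NDI1 in the sums per mouse and with the 10 pairs as blocks. Tent5c had 35.5, 17.6, 19.9, 18.6 and 24.5 CPM with LPS and 66.7, 28.7, 30.4, 33.9 and 38.3 CPM with piericidin A and LPS, higher in 5 of 5 mice. Without LPS the rise was smaller, from a mean of 33.3 CPM untreated to 38.4 CPM after piericidin A. The lowest Tent5c pair, without LPS, was −0.16 (log2). Its mean effect was 0.50 ± 0.16, against 2.82 in WT. Pou3f1 had 39.4, 43.2, 56.7, 31.5 and 42.5 CPM with LPS and 66, 62.1, 69.1, 44.2 and 68.1 CPM with both, again higher in 5 of 5, and was at 2.06 CPM or lower without LPS. Neither passed the edgeR test with the mouse as a block (adjusted p = 0.925 each).

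Il1a, the gene for interleukin-1 alpha, moved in opposite directions by LPS state in NDI1. Without LPS it went from 0.377, 0.712, 1.06, 0.627 and 0.286 CPM to 1.2, 0.989, 0.728, 2.36 and 3.13 CPM with piericidin A, higher in 4 of 5 mice. With LPS it went from 373, 327, 517, 913 and 363 CPM to 319, 270, 446, 807 and 264 CPM, lower in 5 of 5. The effects were 1.45 and −0.27, and the interaction passed only in the analysis with no filter on low counts (adjusted p = 1e-06).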
